A study of Homo sapiens with 8 samples.

Results

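The genes described here form a list of 53 genes of the ATF4 integrated stress response. They were chosen by name from what is known of the pathway, but with earlier results of these data known. Counts of members set beside all genes are therefore not independent support. In this response, kinases that sense misfolded protein in the endoplasmic reticulum, shortage of amino acids, viral RNA or loss of heme phosphorylate the translation factor eIF2 on its alpha subunit. General translation then slows, while the mRNA of the transcription factor ATF4 is translated more, and ATF4 switches on genes for amino acid synthesis and uptake, for the charging of tRNAs, for further transcription factors such as CHOP (DDIT3), and for proteins that dampen the response. Of the 53 members, 51 had at least 1 probe set assigned to their symbol alone, out of 19775 such genes on the array. GPT2 had no probe set and the probe sets of MARS1 carry a second symbol, so neither has a value. FGF21 and SLC6A9 were below their array's median signal in all 8 arrays and were not tested, which left 49 of 12672 genes tested.

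The study asked which genes an HSP90 inhibitor induces and which of these need the heat shock transcription factor HSF1. A375 melanoma cells carried a hairpin induced by Doxycycline, either a non-targeting one (shNTC) or one against HSF1 (shHSF1, labelled sh1999 in the titles), and were grown for 3 days before 3 h of treatment. The 8 arrays formed 4 groups of 2: shNTC cells with 0.1% DMSO (shNTC DMSO), shNTC cells with Doxycycline and DMSO (shNTC Dox DMSO), cells of the shHSF1 line with 100 nM NVP-HSP990 (shHSF1 HSP990), and the same line after Doxycycline with 100 nM NVP-HSP990 (shHSF1 Dox HSP990). Both groups with the inhibitor were of the shHSF1 line and both groups with DMSO of the shNTC line, so inhibitor and line cannot be told apart. The growth protocol names 100 ng/mL Doxycycline for all lines, whereas the titles set cells with Doxycycline apart from control cells, and the titles were followed. Whether the 2 arrays of each group are separate cultures is not stated, so p-values measure only the spread between these arrays, which may be technical.

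HSF1 had MAS5 signals of 36.6 to 99.0 in the 6 arrays of the other groups and of 5.5 and 7.3 in shHSF1 Dox HSP990. The HSF1 target HSPA6 had signals of 1680.8 and 1328.5 in shHSF1 HSP990 and of 5.1 to 18.3 in the other 6 arrays. Of 6 melanocyte lineage markers, MITF (1185.1 to 1965.5) and SOX10 (271.5 to 1069.4) were above the median of every array, whereas PMEL, MLANA, TYR and TYRP1 were below it in all 8. Of 5 fibroblast markers, LUM and COL1A1 were above the median in all arrays, and the summed signal of all 5 was 475.7 to 607.9 in the other groups and 816.5 and 880.2 in shHSF1 Dox HSP990. Of 5 hepatocyte markers none was above the median in all 8 arrays, with SERPINA1 above it in 7 (9.0 to 85.5), and their summed signal was 54.9 to 99.6 in the other groups and 33.2 and 41.1 in shHSF1 Dox HSP990. RNA quality can be read from the ACTB 3-prime to 5-prime ratio, which was 46.8 in array 2 of shNTC Dox DMSO and 4.73 to 18.9 in the other 7. The part of these differences in the results was not tested beyond leaving out each array in turn. In bulk RNA, fewer cells with a transcript and less transcript per cell cannot be told apart.

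Cells treated with NVP-HSP990 had more mRNA of a set of ATF4 targets, led by CHAC1, SESN2, DDIT3, SLC7A11 and INHBE, while ATF4 mRNA itself stayed at the level of the control arrays. In shHSF1 HSP990 against shNTC DMSO, 5 of 49 members rose and none fell, beside 0.197% of all genes called higher. The median log2 change of the members was 0.46, beside 0.01 for all genes. An unadjusted p under 0.05 was found for 25 of 49, beside 628 of all 12672 genes tested. Log2 changes are differences of log2(signal + 16), which understates the change of dim genes, and calls rest on an adjusted p under 0.05 over all genes tested. Both arrays with the inhibitor lay above both DMSO arrays for 37 of 49 members (75.5%), beside 17.6% of all genes. The 5 calls depended on single arrays: leaving out 1 array in turn gave 0 to 6, with 0 without the second array of shNTC DMSO, 2 without the first, and 2 without the second array of shHSF1 HSP990.

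With HSF1 lowered, more members and more of all genes were called. Among these members were GDF15, CTH, ATF3 and STC2, beside the 5 above. In shHSF1 Dox HSP990 against shNTC Dox DMSO, which shares no array with the comparison above but has the same difference of line, and which is called the comparison with Doxycycline below, 15 of 49 members rose and none fell, beside 2.84% of all genes called higher. The 15 were CHAC1, SESN2, GDF15, CTH, DDIT3, ATF3, STC2, SARS1, CEBPG, PCK2, INHBE, TRIB3, SLC1A4, SLC7A11 and ASNS. The median change of the members was 0.50 against 0.01 for all genes. It was 0.58 without the second array of shNTC Dox DMSO, the array with the high ACTB ratio. For 28 of 49 members (57.1%) both arrays with the inhibitor lay above both controls, beside 23.7% of all genes. By unadjusted p, 24 of 49 members were under 0.05, beside 2472 of all 12672 genes tested. The 2 counts without Doxycycline were 25 and 628, so the longer list of called members does not set the comparisons apart. Without the second array of shHSF1 Dox HSP990, 9 members were called. With any 1 array left out, CHAC1, SESN2, GDF15, CTH, DDIT3, ATF3 and STC2 kept their calls, whereas SLC7A11, CEBPG, SARS1, TRIB3, PCK2 and SLC1A4 lost theirs without 1 to 3 of the 4 arrays compared, and INHBE and ASNS also without either array of shNTC DMSO. The difference between the 2 comparisons equals the interaction given below, in which no member was called. The mean of both comparisons, added after the values were seen, set all 4 arrays with NVP-HSP990 against all 4 with DMSO. It called the same 15 and ALDH1L2, PSPH and VLDLR, 18 of 49 in all, beside 1.48% of all genes called higher, and 14 to 19 with 1 array left out. All 4 arrays with the inhibitor lay above all 4 with DMSO for 24 of 49 members (49.0%), beside 3.89% of all genes. Across the 49 members the changes of the 2 separate comparisons had a Pearson r of 0.84, and across all genes tested of 0.23. These points share the same 8 arrays and the same pair of lines, and genes are not independent replicates.

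**Figure D1:**
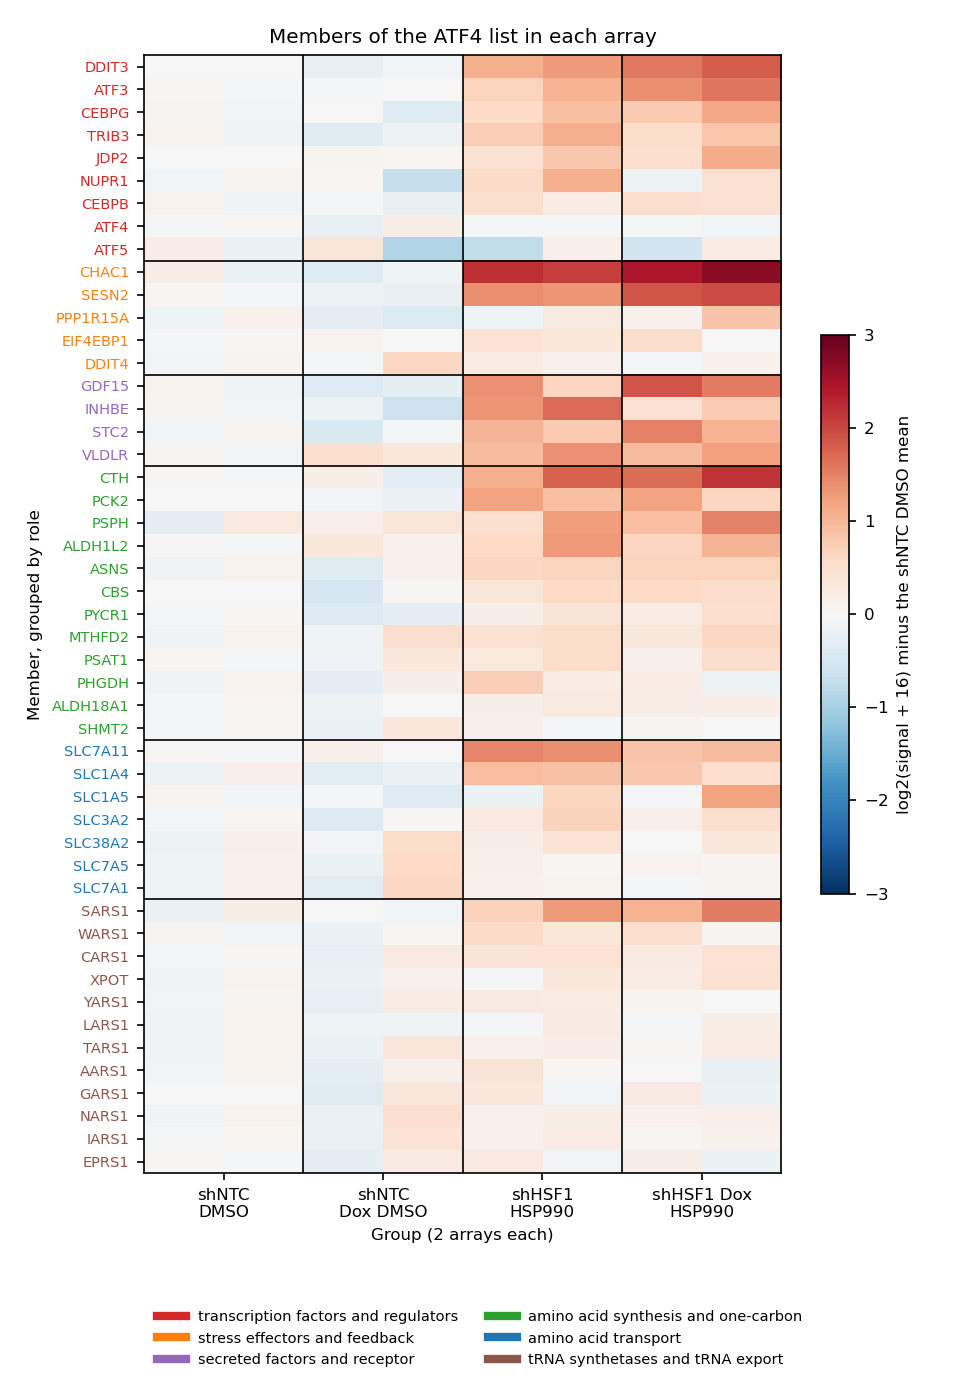
Each row is a tested member of the ATF4 list, grouped by role, and each column an array, in pairs for the 4 groups. Colour gives log2(signal + 16) minus the mean of the 2 shNTC DMSO arrays. CHAC1 is darkest in the 4 arrays with NVP-HSP990. SESN2, GDF15 and DDIT3 are darker in shHSF1 Dox HSP990 than in shHSF1 HSP990, and INHBE and SLC7A11 the reverse. Most tRNA synthetases stay pale in all 8.

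ATF4 had signals of 2670.1 and 2766.3 in shNTC DMSO, 2330.2 and 3096.0 in shNTC Dox DMSO, 2662.1 and 2627.4 in shHSF1 HSP990, and 2625.4 and 2561.8 in shHSF1 Dox HSP990. The arrays with the inhibitor all lay within the range of the arrays with DMSO. Its log2 change was -0.04 (SE 0.17) in shHSF1 HSP990 against shNTC DMSO and -0.05 (SE 0.17) in shHSF1 Dox HSP990 against shNTC Dox DMSO. ATF4 protein, which the response sets mainly through translation, was not measured here.

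Among the 9 transcription factors and regulators, DDIT3, which encodes the pro-apoptotic factor CHOP, was called in both comparisons. Its signals were 117.3 and 118.2 in shNTC DMSO, 98.7 and 110.8 in shNTC Dox DMSO, 263.8 and 310.8 in shHSF1 HSP990, and 382.1 and 451.3 in shHSF1 Dox HSP990. No array with the inhibitor overlapped an array without it, and the highest pair had HSF1 lowered. The log2 change was 1.18 (SE 0.18, adjusted p = 0.0324) without Doxycycline and 1.84 (SE 0.18, adjusted p = 0.000529) with it. The first call was lost when any 1 of 6 arrays was left out, with adjusted p up to 0.47, and with quantile normalization or no filter on dim genes. The second held with every array left out and every other limma setting tried.

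ATF3, a bZIP factor that responds to many stresses, had signals of 117.6 and 110.4 in shNTC DMSO, 108.9 and 113.0 in shNTC Dox DMSO, 189.8 and 250.3 in shHSF1 HSP990, and 324.4 and 378.3 in shHSF1 Dox HSP990. The control arrays were within a narrow range, and the 2 groups with the inhibitor did not overlap each other either. ATF3 rose in the comparison with Doxycycline by 1.53 (SE 0.19, adjusted p = 0.00172), and its change without Doxycycline was 0.85 (SE 0.19, adjusted p = 0.225). CEBPG, a partner of ATF4 in binding DNA, rose from 766.9 and 577.7 to 1311.5 and 1718.3 with Doxycycline (1.15, SE 0.20, adjusted p = 0.00818). Its signals without Doxycycline were 809.0 and 709.3 with DMSO and 1151.6 and 1420.4 with NVP-HSP990, again without overlap.

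TRIB3, a pseudokinase that ATF4 and CHOP induce and that holds both back, rose from 210.3 and 247.2 to 412.2 and 505.2 with Doxycycline (0.95, SE 0.19, adjusted p = 0.0159). Without Doxycycline it stood at 296.2 and 258.1 with DMSO and at 472.4 and 608.2 with the inhibitor (0.92, SE 0.19, adjusted p = 0.148). The size of the difference was close in both, and only the first passed the test across all genes. TRIB3 lost its call when the mean of its 2 probe sets stood for the gene, where adjusted p was 0.086. The other 5 factors were not called in any comparison. JDP2, which dimerizes with ATF3 and other bZIP factors, and CEBPB did not overlap between arrays with and without NVP-HSP990. JDP2 went from 13.8 to 16.1 in the 4 arrays with DMSO to 25.7 to 49.7 in the 4 with the inhibitor, close to the median signal of the arrays. ATF5, another factor under translational control, spanned 57.3 to 159.5 in the DMSO arrays and 66.7 to 143.5 in the inhibitor arrays, with large differences within every group.

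**Figure D2:**
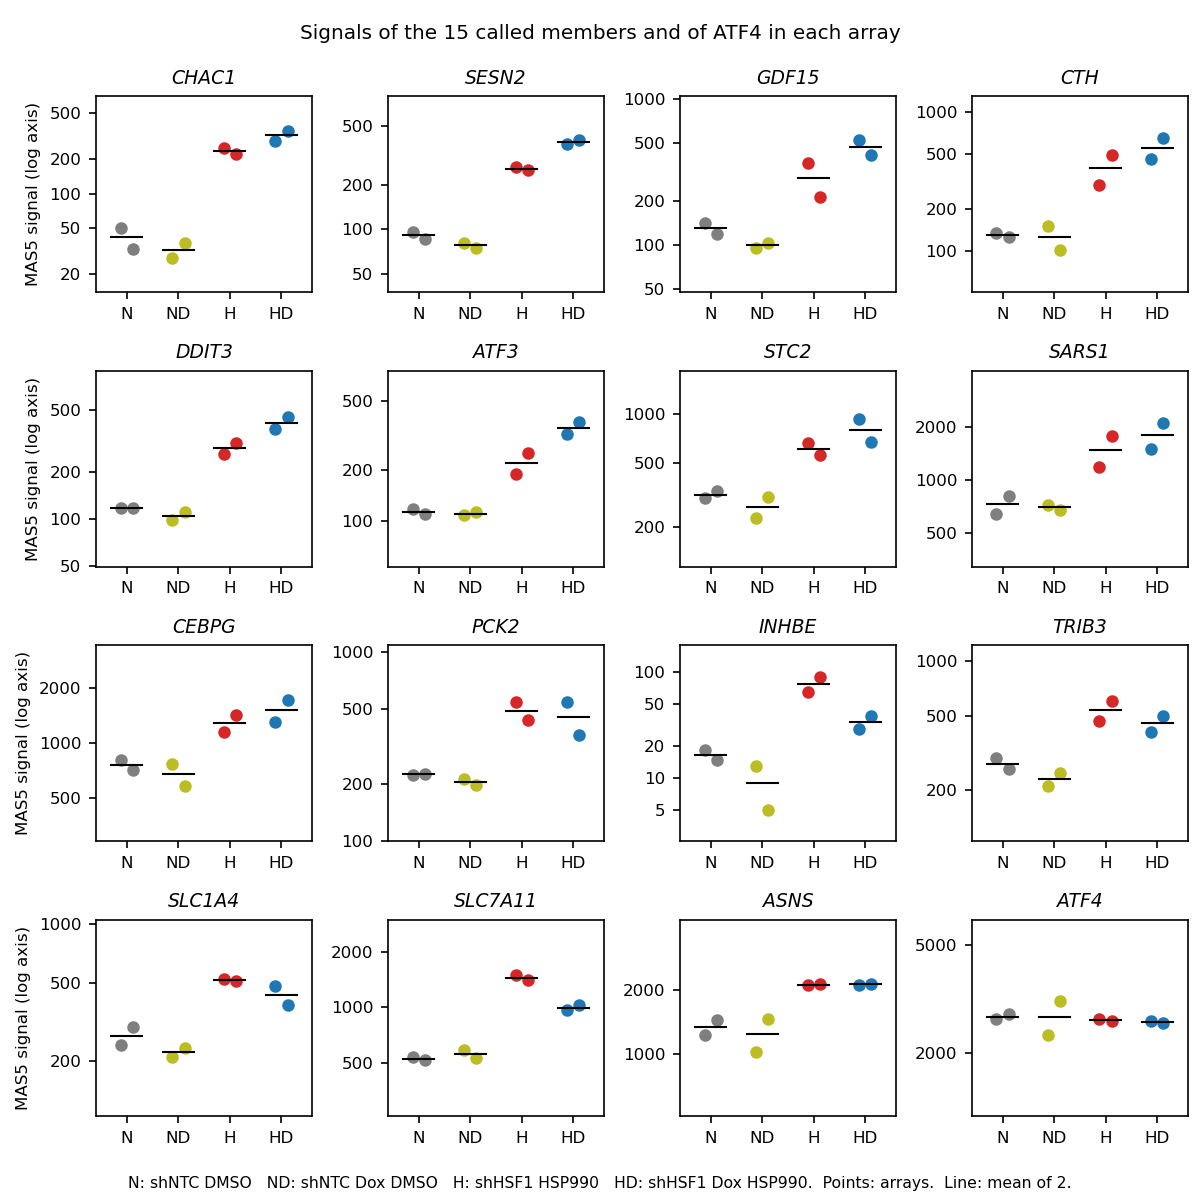
Each panel gives the MAS5 signal on a log axis of 1 of the 15 called members, or of ATF4, in the 2 arrays of each group, with the mean as a line (N, shNTC DMSO; ND, shNTC Dox DMSO; H, shHSF1 HSP990; HD, shHSF1 Dox HSP990). In all 15 called members the 4 arrays of H and HD lie above the 4 of N and ND, while ATF4 stays between 2330.2 and 3096.0.

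The largest change of all members was that of CHAC1, an enzyme that degrades glutathione. It had signals of 49.9 and 33.2 in shNTC DMSO, 27.7 and 37.2 in shNTC Dox DMSO, 248.2 and 222.9 in shHSF1 HSP990, and 288.2 and 353.1 in shHSF1 Dox HSP990. The lowest array with the inhibitor was several times above the highest without it. CHAC1 rose by 2.14 (SE 0.22, adjusted p = 0.00306) without and by 2.80 (SE 0.22, adjusted p = 0.000231) with Doxycycline. Because the control signals are low, the size moves with the number added before taking logs: over the settings tried it was 1.51 to 2.5 for the first and 1.99 to 3.27 for the second. The first call was lost (adjusted p = 0.059) without the second array of shNTC DMSO.

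SESN2, a sestrin that holds back mTORC1 signalling when amino acids are short, had signals of 94.8 and 86.1 in shNTC DMSO, 80.1 and 74.8 in shNTC Dox DMSO, 261.8 and 249.1 in shHSF1 HSP990, and 378.4 and 397.1 in shHSF1 Dox HSP990. The 2 arrays of each group were close to each other and no 2 groups overlapped. SESN2 rose by 1.35 (SE 0.17, adjusted p = 0.0113) and by 2.11 (SE 0.17, adjusted p = 0.000231). The first call was lost with any of the 4 arrays of its own comparison left out, and when the mean of its probe sets was used (adjusted p = 0.0554).

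The other 3 stress effectors were not called. PPP1R15A encodes GADD34, which brings the phosphatase to eIF2 and ends the response. It had signals of 46.1 and 59.1 in shNTC DMSO, 46.2 and 66.1 in shHSF1 HSP990, 40.4 and 35.3 in shNTC Dox DMSO, and 58.6 and 107.3 in shHSF1 Dox HSP990. Without Doxycycline the groups overlapped. EIF4EBP1, a repressor of cap-dependent translation, and DDIT4, which like SESN2 acts on mTORC1, had changes of 0.37 and 0.18 without Doxycycline and of 0.23 and -0.23 with it.

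All 4 tested members of the secreted factors and receptor were higher in each array with NVP-HSP990 than in any with DMSO, beside 3.89% of all genes. GDF15, a stress hormone of the TGF-beta family, had signals of 140.7 and 120.0 in shNTC DMSO, 95.5 and 104.2 in shNTC Dox DMSO, 363.5 and 212.2 in shHSF1 HSP990, and 521.5 and 410.1 in shHSF1 Dox HSP990. It rose in the comparison with Doxycycline by 2.05 (SE 0.25, adjusted p = 0.0014), and the change without Doxycycline was 1.01 (SE 0.25, adjusted p = 0.279), where the 2 inhibitor arrays differed from each other. STC2, a secreted glycoprotein of the stanniocalcin family, rose from 226.6 and 307.2 to 929.4 and 667.1 (1.52, SE 0.20, adjusted p = 0.00243). Without Doxycycline its signals were 300.0 and 334.5 with DMSO and 658.5 and 559.7 with NVP-HSP990.

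INHBE, which encodes an inhibin beta subunit, had signals of 18.1 and 14.6 in shNTC DMSO, 12.9 and 5.0 in shNTC Dox DMSO, 64.4 and 89.2 in shHSF1 HSP990, and 28.7 and 38.6 in shHSF1 Dox HSP990. It was highest in the arrays where HSF1 was not lowered. INHBE rose by 1.51 (SE 0.23, adjusted p = 0.03) without and by 1.00 (SE 0.23, adjusted p = 0.0307) with Doxycycline. It is dim, and the changes over the settings tried were 0.80 to 2.15 and 0.42 to 1.91. With no filter on dim genes both calls were lost, and with 1 added before the log the call without Doxycycline was lost (adjusted p = 0.144). VLDLR, the receptor for very low density lipoprotein, had 36.3 to 62.6 in the DMSO arrays and 90.5 to 127.1 in the inhibitor arrays, and rose in the mean of both comparisons (0.91, SE 0.16, adjusted p = 0.0153). FGF21 had signals of 0.2 to 6.0 and was below the median of every array.

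Among the 12 tested enzymes of amino acid synthesis and one-carbon metabolism, none was called without Doxycycline, beside 0.197% of all genes called higher. Their median change there was 0.49. With Doxycycline CTH, PCK2 and ASNS rose, beside 2.84% of all genes called higher, and the median of the 12 was 0.66. CTH, the cystathionine gamma-lyase that makes cysteine in transsulfuration, had signals of 136.2 and 127.4 in shNTC DMSO, 152.8 and 101.7 in shNTC Dox DMSO, 299.7 and 489.9 in shHSF1 HSP990, and 459.7 and 652.5 in shHSF1 Dox HSP990. The 2 arrays within each group with the inhibitor differed, and still no array overlapped those with DMSO. CTH rose by 2.00 (SE 0.27, adjusted p = 0.00235), and its change without Doxycycline was 1.44 (SE 0.27, adjusted p = 0.0964). PCK2, the mitochondrial phosphoenolpyruvate carboxykinase, had the same change of 1.06 (SE 0.21) in both comparisons, with adjusted p of 0.117 without and 0.0153 with Doxycycline.

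ASNS, asparagine synthetase, had signals of 1226.8 and 1441.3 in shNTC DMSO, 1024.6 and 1454.3 in shNTC Dox DMSO, 2102.8 and 2127.4 in shHSF1 HSP990, and 2113.3 and 2130.9 in shHSF1 Dox HSP990. The 4 arrays with the inhibitor were close to each other and above all 4 with DMSO. ASNS rose by 0.79 (SE 0.18, adjusted p = 0.0341) with Doxycycline, a call that was lost when any 1 of 5 arrays was left out and under 4 of the other settings, where adjusted p reached 0.0931. The change without Doxycycline was 0.66 (SE 0.18, adjusted p = 0.444). PSPH, which makes serine in the last step of its pathway, and ALDH1L2, a mitochondrial folate enzyme, were called in the mean of both comparisons (0.90, adjusted p = 0.0463, and 0.77, adjusted p = 0.0452). The other enzymes of the serine and one-carbon pathway had smaller changes in the comparison without Doxycycline, of 0.49 for MTHFD2, 0.48 for PHGDH, 0.41 for PSAT1 and 0.06 for SHMT2. In the comparison with Doxycycline these were 0.30, 0.09, 0.24 and -0.03. CBS, which acts before CTH in transsulfuration, and the proline enzymes PYCR1 and ALDH18A1 did not overlap between the arrays with and without NVP-HSP990 and were not called.

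Of the 7 tested transporters, SLC7A11 and SLC1A4 rose in the comparison with Doxycycline, beside 2.84% of all genes called higher. SLC7A11 alone of the 7 rose without it, beside 0.197%. SLC7A11, the cystine and glutamate exchanger, had signals of 536.7 and 516.0 in shNTC DMSO, 584.6 and 529.9 in shNTC Dox DMSO, 1491.1 and 1410.7 in shHSF1 HSP990, and 963.3 and 1027.7 in shHSF1 Dox HSP990. Arrays with the inhibitor and HSF1 lowered lay between the controls and the arrays with the inhibitor alone. It rose by 1.44 (SE 0.14, adjusted p = 0.00203) without and by 0.82 (SE 0.14, adjusted p = 0.00818) with Doxycycline. Each call was lost when 1 array was left out, the first without the second array of shNTC DMSO (adjusted p = 0.059) and the second without the second array of shHSF1 Dox HSP990 (adjusted p = 0.0663). A second probe set had close values (1.46 and 0.96), and the third had 0.36 and 0.24.

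SLC1A4, a carrier of alanine, serine and cysteine, had 241.3 and 299.6 in shNTC DMSO, 210.0 and 233.9 in shNTC Dox DMSO, 527.0 and 512.1 in shHSF1 HSP990, and 487.0 and 389.2 in shHSF1 Dox HSP990. It rose by 0.93 (SE 0.18, adjusted p = 0.0143) with Doxycycline, and the change without it was 0.91 (SE 0.18, adjusted p = 0.117). SLC3A2, the heavy chain that SLC7A11 pairs with at the cell surface, had a change of 0.49 without and 0.50 with Doxycycline and was not called. SLC7A5, SLC7A1 and SLC38A2, the transporters of large neutral, cationic and small neutral amino acids, had changes of 0.11, 0.12 and 0.30 without and of -0.10, -0.13 and -0.06 with Doxycycline. SLC6A9, the glycine transporter, was at 0.2 to 8.3 in all arrays.

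Among the tRNA synthetases of the list, SARS1 was the 1 called, and only by 1 of its 2 probe sets. In the comparison with Doxycycline, where it was called, 2.84% of all genes were called higher. Of the 12 tested members with a role in tRNA charging or export, 11 had changes of at most 0.46 in both comparisons and none of these was called. SARS1, which charges serine tRNA, had signals of 638.6 and 810.0 in shNTC DMSO, 723.1 and 676.9 in shNTC Dox DMSO, 1177.6 and 1775.9 in shHSF1 HSP990, and 1504.5 and 2103.6 in shHSF1 Dox HSP990. No array with NVP-HSP990 overlapped one with DMSO. SARS1 rose by 1.33 (SE 0.23, adjusted p = 0.00818) with Doxycycline, and its change without it was 0.99 (SE 0.23, adjusted p = 0.241). Its other probe set, the brighter of the 2 in shNTC DMSO (815.4 and 832.0), had smaller changes, of 0.44 and 0.39. Tested singly, that probe set was not called (adjusted p = 0.121 with and 0.982 without Doxycycline, and 0.0714 in the mean of both comparisons). WARS1 and CARS1 had the next largest changes without Doxycycline, 0.46 and 0.41, with both inhibitor arrays above both DMSO arrays. The list of other cytosolic synthetases and their scaffold had none of 7 tested genes called, and the mitochondrial synthetases none of 15, in any comparison. RARS1, which charges arginine tRNA, nevertheless had a change of 0.64 (SE 0.17, adjusted p = 0.375) without Doxycycline and of 0.48 (adjusted p = 0.0596) in the mean of both comparisons. The mitochondrial MARS2 and YARS2 had changes of 0.81 (adjusted p = 0.101) and 0.79 (adjusted p = 0.236) in the comparison with Doxycycline, and of -0.24 and 0.03 without it.

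**Figure D3:**
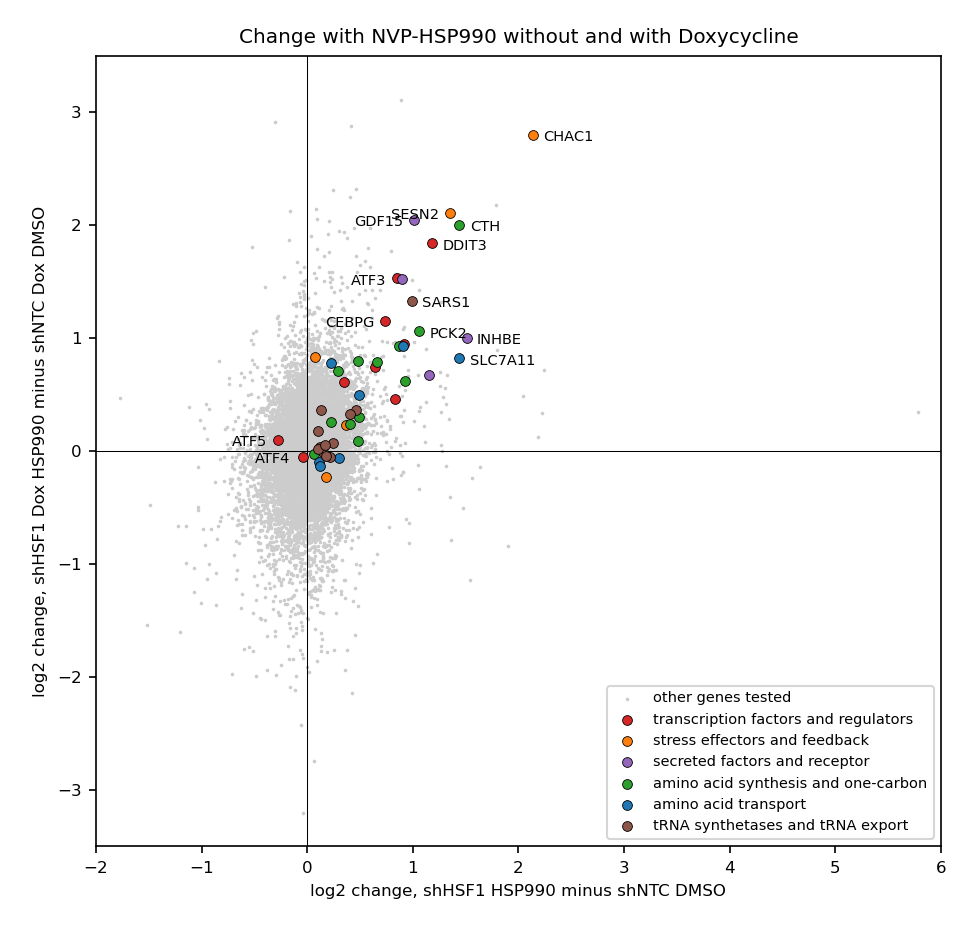
Each point is a gene, with the log2 change of shHSF1 HSP990 against shNTC DMSO on the x axis and that of shHSF1 Dox HSP990 against shNTC Dox DMSO on the y axis. Members are coloured by role and the other genes tested are grey. CHAC1 stands farthest from the origin among the members (2.14 and 2.80), and the tRNA synthetases other than SARS1 lie near it.

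The brightest members in control cells had small changes. Of the 24 members above the members' median signal of 724.3 in shNTC DMSO, 3 were called in the mean of both comparisons (CEBPG, ASNS and PSPH), and of the 25 at or below it 15 were. Among all genes tested, 11 of the 3001 above 724.3 (0.367%) and 177 of the 9671 at or below it (1.83%) were called higher in that mean. All 11 members with a mean above 2000 in shNTC DMSO, ATF4, DDIT4, SHMT2, SLC7A5, SLC7A1, SLC38A2, GARS1, NARS1, IARS1, YARS1 and TARS1, had changes between -0.04 and 0.16 in it, and that limit was chosen after the values were seen. Of all genes tested, 723 were above it and 2 of these were called higher. In 10 of the 11 the highest of the 8 signals was in the second array of shNTC Dox DMSO, the array with the ACTB ratio of 46.8. Without that array the 11 had changes of 0.09 to 0.39 (median 0.28) in shHSF1 Dox HSP990 against shNTC Dox DMSO, where the median with it was -0.04. Whether signals near the top of the scale are compressed was not tested.

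**Figure D4:**
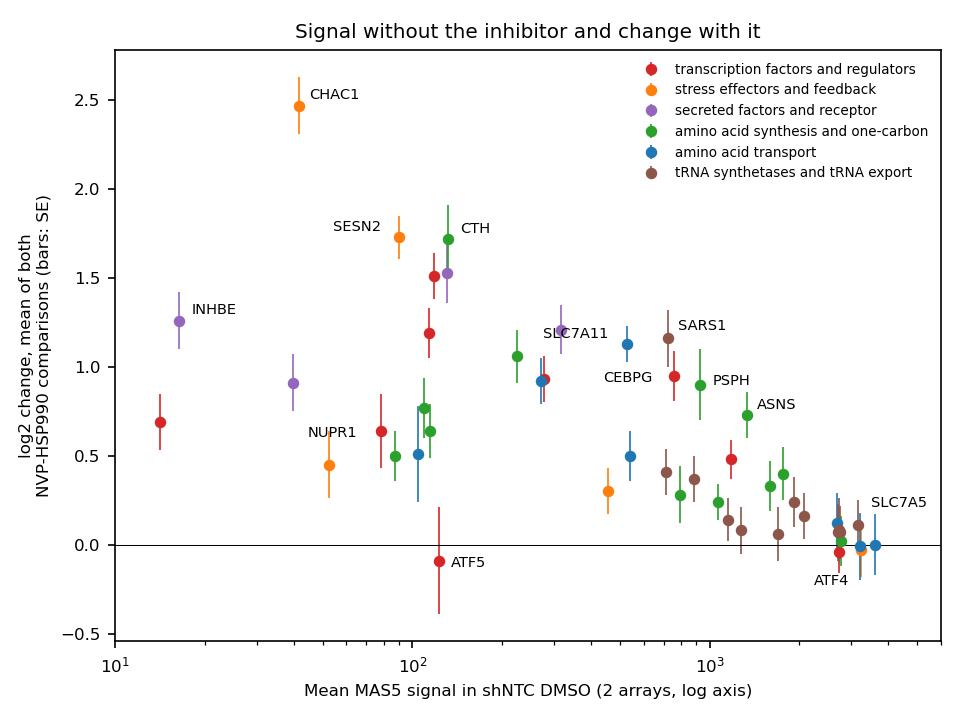
Each point is a tested member, with its mean MAS5 signal in the 2 shNTC DMSO arrays on a log x axis and its log2 change in the mean of both comparisons with NVP-HSP990 on the y axis (bars are standard errors). Members above 2000 have changes of -0.04 to 0.16, and those called lie between 16.4 and 1334. The shNTC DMSO arrays enter both axes.

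ATF4 binds, as a dimer with C/EBP proteins, to a composite element in the promoters of many targets, whose core was searched as TGATGNAA, where N is any base, on both strands. Promoters ran from 250 bases before to 50 bases after the start site and were taken from RefSeq on GRCh38.p14. Of the 53 members, 42 had at least 1 promoter, with 66 promoters in all. The core was in 17 of these 66 promoters (25.8%), in 2.14% of the 15162 promoters of the genes tested and in 3.62% of all 35116 promoters. The members were chosen as known genes of this pathway, so the share describes the list. The 17 promoters belonged to 17 members, ATF3, CHAC1, CEBPG, FGF21, JDP2, ASNS, SLC3A2, SLC7A1, SLC1A4, SLC1A5, AARS1, GARS1, MARS1, NARS1, IARS1, CARS1 and TARS1, 5 of them among the 15 that rose. The heat shock element core GAANNTTC, which reads the same on both strands, was in 3 of the 66 (4.55%), in 5.0% of promoters of the genes tested and in 6.77% of all.

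Stretches of promoter around the match are shown for the 5 called members with the core and for IARS1, chosen after its values were seen as a member that has the core and was not called. Each is written from 5′ to 3′ along the gene, with the match in capitals and up to 60 bases on either side, and holds no base past the start site beyond the match. A match written TTGCATCA has the core on the opposite strand.
CHAC1: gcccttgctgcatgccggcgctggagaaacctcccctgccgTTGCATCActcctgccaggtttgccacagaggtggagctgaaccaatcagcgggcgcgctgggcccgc
ATF3: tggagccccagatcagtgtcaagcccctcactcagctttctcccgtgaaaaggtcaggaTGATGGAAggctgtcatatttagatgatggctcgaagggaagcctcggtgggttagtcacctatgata
CEBPG: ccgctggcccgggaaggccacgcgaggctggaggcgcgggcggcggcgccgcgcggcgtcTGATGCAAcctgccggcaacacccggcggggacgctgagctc
ASNS: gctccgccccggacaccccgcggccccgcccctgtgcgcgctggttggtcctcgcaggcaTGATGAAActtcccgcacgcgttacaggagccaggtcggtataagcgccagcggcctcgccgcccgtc
SLC1A4: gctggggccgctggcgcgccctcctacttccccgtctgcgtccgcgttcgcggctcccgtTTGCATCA
IARS1: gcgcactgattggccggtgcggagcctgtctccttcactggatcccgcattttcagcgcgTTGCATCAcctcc

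They lie at chr15:40953221-40953329 for CHAC1, chr1:212565157-212565283 for ATF3, chr19:33374011-33374112 for CEBPG and chr2:64989332-64989399 for SLC1A4, all on the forward strand, and at chr7:97872409-97872536 for ASNS and chr9:92293698-92293770 for IARS1 on the reverse strand. Counted from the start site, the first base of the match was at -209 in CHAC1, -191 in ATF3, -42 in CEBPG, -68 in ASNS, -7 in SLC1A4 and -13 in IARS1. In ASNS the heat shock element core, GAAACTTC, begins at -64 and overlaps the end of the match. IARS1 has the same 8 letters as CHAC1 and SLC1A4, and it had signals of 2624.8 and 2892.2 in shNTC DMSO and of 3019.5 and 3226.3 in shHSF1 HSP990 (0.18, SE 0.21). Of the 15 tested members with the core, 10 were not called, among them AARS1, GARS1, NARS1, CARS1 and TARS1. DDIT3, SESN2, GDF15, SLC7A11 and the other called members had no match in these windows or no promoter there. A match is a run of letters and not a measured binding site.

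To ask what HSF1 adds, shHSF1 Dox HSP990 was compared with shHSF1 HSP990. The members differed little as a set: the median log2 change was -0.03 (0.00 for all genes), 41 of 49 had changes under 0.5 in either direction, and none was called, beside 2.84% of all genes called in either direction. By unadjusted p, 7 of 49 members were under 0.05, beside 1943 of all 12672 genes tested, which is a similar share. Both arrays with HSF1 lowered lay above both others for 6 of 49 members (12.2%), beside 21.5% of all genes, and below them for 9 of 49 (18.4%), beside 21.8%. For ATF4 the change was -0.03 with a 95% interval of -0.42 to 0.36.

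The 7 members pointed in both directions. GDF15 had a change of 0.70 (95% interval 0.16 to 1.25, adjusted p = 0.186), ATF3 of 0.65 (0.22 to 1.07, adjusted p = 0.116), SESN2 of 0.57 (0.19 to 0.96, adjusted p = 0.122) and DDIT3 of 0.51 (0.11 to 0.91, adjusted p = 0.189). INHBE had a change of -0.90 (-1.40 to -0.39, adjusted p = 0.0685), NUPR1, a small chromatin protein induced by stress, of -0.68 (-1.35 to -0.01, adjusted p = 0.319), and SLC7A11 of -0.54 (-0.85 to -0.23, adjusted p = 0.0755). These 7 were picked by unadjusted p, so their intervals, from the same fit, leave out 0 by that choice. None passed the test over all genes. For CHAC1 the change was 0.42 (-0.08 to 0.91) and for ASNS 0.00 (-0.40 to 0.41). Under other settings, 1 member at a time was called: INHBE lower with 64 added before the log (adjusted p = 0.0313) or with median centring (adjusted p = 0.038), SLC7A11 lower with a replicate block (adjusted p = 0.0351), and STC2 higher with the mean of its probe sets (0.66, adjusted p = 0.0434) or by its second probe set (0.96, adjusted p = 0.0362).

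Doxycycline itself, tested in shNTC cells with DMSO, called no member and 0.0% of all genes. None of the 49 members had an unadjusted p under 0.05, beside 306 of all genes, and the changes ran from -0.39 to 0.41 with a median of -0.05. The interaction, the Doxycycline effect under NVP-HSP990 in the shHSF1 line minus that under DMSO in the shNTC line, called no member either, beside 0.789% of all genes called in either direction. Its median over the members was 0.00. An unadjusted p under 0.05 was found for 5 of 49 members, beside 1337 of all 12672 genes tested, a similar share. The 5 were GDF15 (1.04), SESN2 (0.76), ATF3 (0.68), DDIT3 (0.66) and SLC7A11 (-0.62). Of these, SESN2 had the lowest adjusted p, 0.25.

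**Figure D5:**
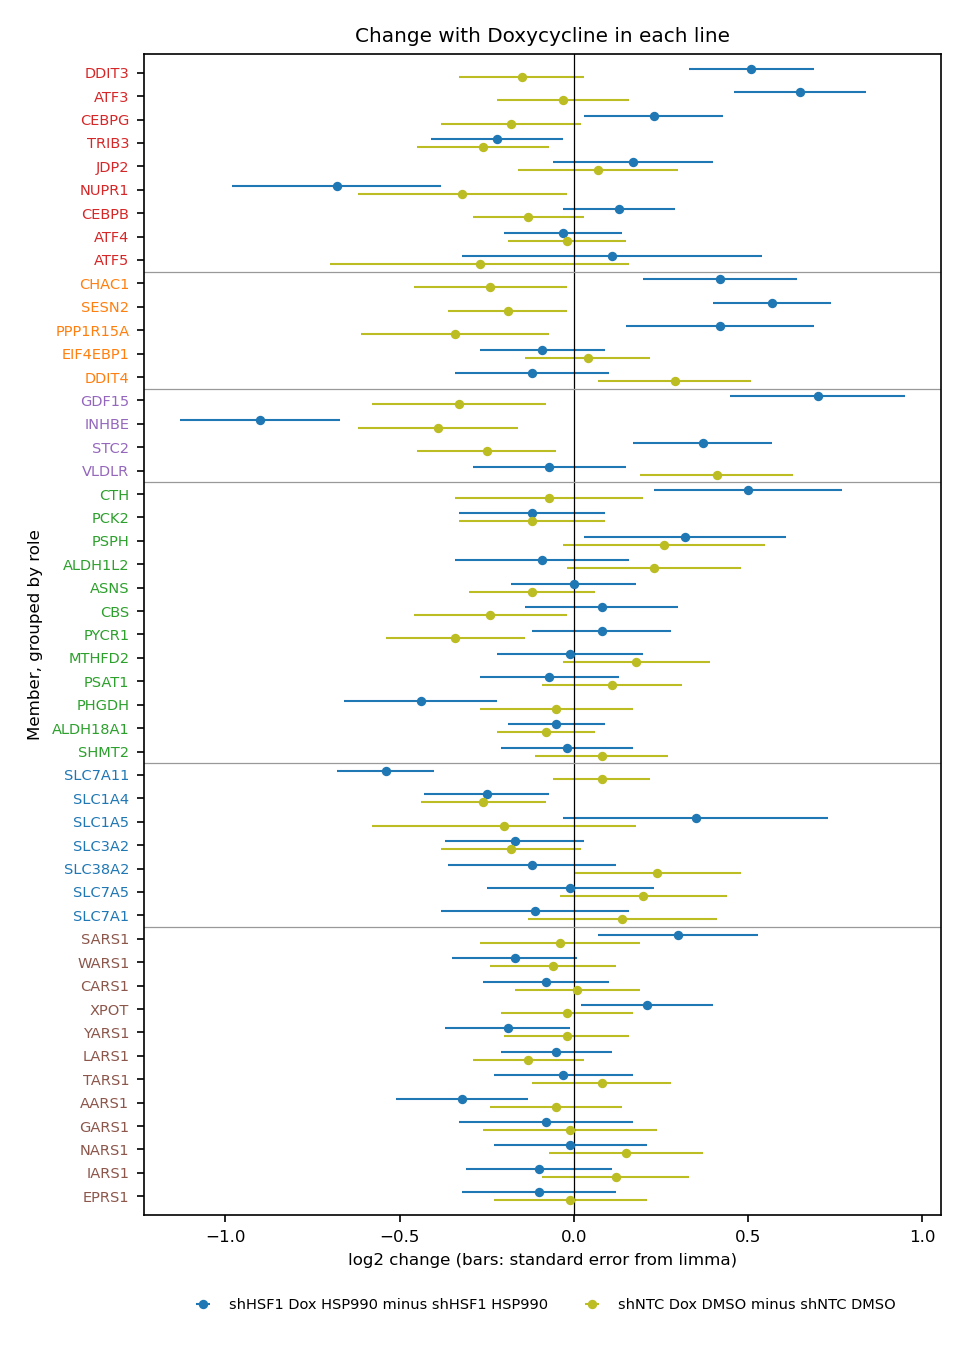
Log2 changes with Doxycycline of the 49 tested members, grouped by role, in shHSF1 cells with NVP-HSP990 (blue) and in shNTC cells with DMSO (yellow). Bars are standard errors from limma. The blue points run from -0.90 for INHBE to 0.70 for GDF15, and no point of either colour was called.

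Genes next to the list in the pathway were read from further lists. None of the 16 genes of the eIF2alpha kinases and eIF2 machinery was called in shHSF1 HSP990 against shNTC DMSO, with a median of 0.04, and the 4 kinases EIF2AK1, EIF2AK2, EIF2AK3 and EIF2AK4 had changes of -0.11, -0.13, 0.26 and 0.19. In the comparison with Doxycycline PPP1R15B, the constitutive partner of the eIF2 phosphatase, rose by 0.65 (SE 0.15, adjusted p = 0.0357). It was the 1 called gene of the 16, beside 2.84% of all genes called higher, and is not read as a result about the list. Its change without Doxycycline was 0.05 (difference 0.61, adjusted p = 0.318). Of 9 tested genes on a second list of ATF4 or CHOP targets, PMAIP1 and HERPUD1 were called higher in the comparison with Doxycycline, beside 2.84% of all genes. ADM2 was called too and is set apart below. Without Doxycycline 0 were called, beside 0.197%. There PMAIP1 and HERPUD1 had an unadjusted p under 0.05, beside 628 of all 12672 genes tested. PMAIP1, which encodes the BH3 protein NOXA, rose by 1.10 (adjusted p = 0.0473) with Doxycycline and had a change of 0.92 (adjusted p = 0.562) without it. HERPUD1, a factor of protein degradation at the endoplasmic reticulum, rose by 0.96 (adjusted p = 0.00583) with it and had 0.75 (adjusted p = 0.148) without it. The difference between the 2 comparisons was 0.19 for PMAIP1 (adjusted p = 0.933) and 0.21 for HERPUD1 (adjusted p = 0.833), so the calls do not set the comparisons apart. The third, the peptide hormone ADM2, had signals of 1.7 to 9.6 with DMSO, below the median of each of those 4 arrays, and of 12.2 to 22.1 with NVP-HSP990, and it passed the filter only through the arrays where it was high, so no fold change is given for it. HERPUD1 had signals of 946.4 to 1029.7 in the 4 arrays with DMSO and 1528.5 to 2056.3 in the 4 with NVP-HSP990.

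Of 11 genes in the other branches of the unfolded protein response, which run through IRE1 and ATF6, only XBP1 was called in any comparison. It rose by 1.51 (SE 0.24, adjusted p = 0.00635) with Doxycycline, where 2.84% of all genes were called higher. Its change without Doxycycline was 0.99 (SE 0.24, adjusted p = 0.294), and the difference between the 2 comparisons was 0.52 (adjusted p = 0.689). In the mean of both it rose by 1.25 (adjusted p = 0.00467), beside 1.48% of all genes called higher. XBP1, the factor whose mRNA IRE1 splices, had signals of 241.0 to 298.1 with DMSO and 409.5 to 810.1 with the inhibitor. The chaperone HSPA5, the classic target of this response, had changes of 0.21 (SE 0.24) without and 0.08 (SE 0.24) with Doxycycline. Its highest signal, 4789.4, was in the second array of shNTC Dox DMSO, the array with the ACTB ratio of 46.8, beside 2814.3 in the first. The part of that array in the change was not tested. None of the 13 tested genes among other amino acid and one-carbon enzymes was called, with medians of -0.01 and 0.18.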

How the data were processed

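RNA of A375 cells was hybridized to 8 HG-U133 Plus2 arrays. Titles of the samples gave the 4 groups of 2 and the replicate numbers. Each deposited value is a signal intensity from MAS5 (version not given in the sources used here), scaled by the authors on a linear scale with a trimmed mean of 150 per array (2% trimmed at each end). For arrays, their number limits the precision.

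Probe sets with a single gene symbol in the platform annotation were used (41091 of 54675, with 1801 carrying several symbols and 11721 none). Each gene was represented by its brightest probe set by mean log2 signal over all 8 arrays, so the groups compared entered that choice. A gene was tested when at or above its array's median in at least 2 arrays. The signal plus 16 was taken to log2. limma 3.58.1 in R 4.3.3 fitted the mean of each of the 4 groups to all 8 arrays, with variances trended on intensity (4 residual and 6.36 prior degrees of freedom). Tests were two-sided with Benjamini-Hochberg adjustment over 12672 genes. Scripts were checked on simulated data. Tables, motif searches and plots used Python 3.11.15.

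The 53 members and the other lists were chosen with earlier results of these data known. Named were all members called in any comparison, ATF4, DDIT3, ATF3, CHAC1, TRIB3 and ASNS, and the 3 largest changes in each direction with NVP-HSP990 and with the knockdown. Other members were named to account for the whole list and after their values were seen. The markers were those of the melanocyte lineage, fibroblast, hepatocyte and colon epithelium. No colon marker was above the median in any array.

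Alternatives were 1 or 64 added before the log, no filter or a filter in all 8 arrays, median centring, quantile normalization, averaging a gene's probe sets, single probe sets, no trend, only the arrays compared, a replicate block, the methods' t-test, and each array left out in turn. The mean of both NVP-HSP990 comparisons and the counts of members that do not overlap were added after the values were seen. The replicate numbers were checked for pairing: deviations from the group means correlated at 0.016 to 0.685 between the groups of a comparison, and the numbers were not taken to pair the arrays.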

Additional observations from a re-analysis of the deposited data

How the results depend on the processing

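Every call of a member kept its direction under every setting run, and no member was called lower with NVP-HSP990 under any. Depending on the setting, limma called 3 to 7 members higher with NVP-HSP990, 13 to 21 with the knockdown and NVP-HSP990 against the Doxycycline control, and 16 to 23 in the mean of both comparisons. With no filter on dim genes, 3 members and 16 genes were called with NVP-HSP990, 221 genes with the knockdown, 450 against the Doxycycline control, 59 in the interaction and 186 in the mean of both. The methods' t-test, a Student t-test, called 0 members and 0 genes in each comparison after Benjamini-Hochberg adjustment. Unadjusted, it put 15 members past its threshold with NVP-HSP990, 3 with the knockdown and 13 against the Doxycycline control. No share over all genes stands beside these t-test counts, so they are not read as a result about the members. With only the arrays compared, 95 genes were called with the knockdown. The members' median was 0.32 with NVP-HSP990 over single probe sets, and 0.35 against the Doxycycline control with 64 added before the log. In the knockdown, 1 member was called lower with 64 added, with median centring or with the replicate block, and 1 higher with the mean of all probe sets or over single probe sets. TRIB3, not called in the knockdown, had -0.22 there and 0.05 with the mean of its probe sets.

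With the replicate block, 6 members were called higher with NVP-HSP990, 21 against the Doxycycline control and 23 in the mean of both, and 44, 752, 1237, 279 and 798 genes with NVP-HSP990, with the knockdown, against the Doxycycline control, in the interaction and in the mean of both. The same numbers are not known to pair the arrays.

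Leaving out 1 array in turn gave 0 to 6 members and 5 to 30 genes with NVP-HSP990, 123 to 380 genes with the knockdown, 9 to 16 members and 263 to 802 genes against the Doxycycline control, 7 to 76 genes in the interaction, and 97 to 443 genes in the mean of both. The members' median ran from 0.43 to 0.66 against the Doxycycline control, from -0.17 to 0.04 with Doxycycline and from -0.07 to 0.17 in the interaction. Among knockdown changes near 0, ATF5 ran from -0.33 to 0.56, ASNS from -0.0036 to 0.01 and PCK2 from -0.40 to 0.16. The cause of these shifts was not tested. INHBE and JDP2 have signals close to their arrays' medians in the DMSO groups, and with 2 arrays a group the spread of each is known only through the shared fit.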
